A study of Homo sapiens with 56 samples.

Results

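The genes described here are 10 immune checkpoint ligands and enzymes of tumour cells, CD274, PDCD1LG2, CD276, VTCN1, HHLA2, PVR, CD47, LGALS9, NT5E and IDO1, among 18377 genes measured in established ovarian cancer cell lines. They were chosen by name, with earlier results of these data known. Each was read from the only probe set that the annotation assigns to it alone. The lines, 28 in all and none treated, were each profiled on 2 Affymetrix Human Gene ST arrays (56 arrays), to relate expression to epithelial-mesenchymal transition (EMT), the shift of cells from an epithelial to a mesenchymal state. The values are log2 intensities after robust multi-array averaging (RMA), and a level is the mean of the 2 arrays of a line. CAOV3, CH1, DOV13, OVCA420, OVCA432, OVCA433, SKOV3 and TYKNU were grown in DMEM, as were OAW28 and OAW42 with insulin. A2780, COLO720E, HEY, HEYC2 and PEO1 were grown in RPMI, EFO21 in RPMI with non-essential amino acids, and OVCAR2, OVCAR3 and OVCAR5 in RPMI with insulin. FUOV1 was grown in DMEM/F12, JHOS2, JHOS3 and JHOS4 in DMEM/F12 with non-essential amino acids, and OV7, OV17R and OV56 in DMEM/F12 with hydrocortisone and insulin. For UWB1.289 the medium was a mixture of RPMI and MEGM, and for TOV112D one of MCDB105 and M199. Serum was 10% for 22 lines, 20% for EFO21 and OVCAR3, 5% for OV7, OV17R and OV56 and 3% for UWB1.289. The cultures hold tumour cells without the stroma and leukocytes of a tumour. The sources do not say if both arrays of a line had separate cultures behind them, so tests between lines are set only against array spread, possibly a technical one.

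T cells are restrained by ligands that engage inhibitory receptors on their surface. PD-L1 and PD-L2, encoded by CD274 and PDCD1LG2, bind PD-1, and other members of the B7 family, B7-H3 (CD276), B7-H4 (VTCN1) and HHLA2, act on T cells through receptors that are less well settled. The poliovirus receptor PVR binds TIGIT, CD96 and the activating receptor CD226, CD47 gives phagocytes a signal not to engulf the cell by binding SIRP-alpha, and galectin-9 (LGALS9) is a secreted lectin. The ectoenzyme CD73 (NT5E) makes adenosine from AMP, and the cytoplasmic enzyme IDO1 breaks down tryptophan to kynurenine. Both products dampen lymphocytes. Interferon-gamma is a well known inducer of CD274, PDCD1LG2 and IDO1.

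The mean over the 14 measured leukocyte markers lay between 4.73 and 5.40 in each line. The pan-leukocyte gene PTPRC stood between 2.80 and 3.93, whereas CD68, a lysosomal gene of macrophages, ran from 6.44 to 10.73, and CD14 and CD3G reached 7.90 and 7.60. The epithelial keratins KRT8 and KRT18 ran from 9.01 to 13.74 and from 9.18 to 13.28. EPCAM went down to 4.57, and MUC16, WT1 and FOLR1 had medians of 5.58, 6.40 and 6.22. The mean over the 12 carcinoma and Mullerian markers lay between 7.14 and 10.47. The mean over the 12 fibroblast and endothelial markers lay between 5.03 and 7.09. Of these, DCN and LUM had medians of 3.41 and 2.96 but highest levels of 9.03 and 10.37. COL1A1 had a lowest level of 6.85 and a median of 7.43, and THY1, COL3A1, PECAM1 and CDH5 reached 10.68, 10.03, 9.79 and 9.28. There were 3 arrays that stood apart, the first of HEYC2, the first of OVCA420 and the second of OV56. The SD of their values was 1.844 to 1.893, against 2.088 to 2.324 on the other 53 arrays, and they correlated with their duplicates at 0.731 to 0.865. On these arrays NT5E and CD47 lay far below the duplicate, so values of these genes are also given without them. CD274 and IDO1 in OV56 (4.86 and 4.85, against 6.79 and 6.71) and PDCD1LG2 in HEYC2 (5.39, against 7.29) were also below the duplicate.

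The bases upstream of CD274 and of NT5E are shown because the levels of both genes varied together over the lines. They are the 250 bases before the start of each gene in RefSeq (GRCh38.p14), which held such windows for 8 of the 10 members, and capitals mark matches to the motifs searched.
CD274, chr9:5450292-5450541, plus strand: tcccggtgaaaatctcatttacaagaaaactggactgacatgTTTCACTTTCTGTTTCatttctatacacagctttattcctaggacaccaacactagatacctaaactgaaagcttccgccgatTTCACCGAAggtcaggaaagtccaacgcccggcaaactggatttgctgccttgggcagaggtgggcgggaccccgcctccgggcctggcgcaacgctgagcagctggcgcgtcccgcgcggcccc
NT5E, chr6:85449833-85450082, plus strand: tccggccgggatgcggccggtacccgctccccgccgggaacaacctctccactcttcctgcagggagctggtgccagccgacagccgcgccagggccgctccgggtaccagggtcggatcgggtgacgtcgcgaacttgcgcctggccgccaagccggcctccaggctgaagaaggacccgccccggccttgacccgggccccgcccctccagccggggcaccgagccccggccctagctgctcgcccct
The CD274 window held 2 overlapping matches to the interferon regulatory factor letters (GAAA, any 2 bases, GAAA), from base 208 to base 193 before the start, and a match to the STAT letters TTCNNNGAA, from base 125 to base 117. Of all 35116 windows, 3.02% held the first motif and 6.57% the second, on either strand. The NT5E window held neither, nor the NF-kB letters (GGG, any 3 bases, TTCC, in 5.67% of windows), the ZEB E-box CACCTG (17.5%), the GRHL letters AACCGGTT (0.117%) or the AP-1 letters TGANTCA (6.57%). Among the other members with a window, PVR held the ZEB E-box and HHLA2, in 1 of its 3 windows, the AP-1 letters, and none held the interferon regulatory factor or STAT letters.

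The levels of 9 members differed between lines by more than the duplicate arrays did, as did those of 65.7% of all genes (12069 of 18377, limma's F test, adjusted p under 0.05), and LGALS9 did not pass. Without the 3 arrays the same count was 9, against 80.7% of all genes. NT5E had an SD over lines of 2.05 log2 units, VTCN1 1.85, IDO1 1.51, CD274 1.47, CD47 1.23 and PDCD1LG2 1.18, and the SD of each of these 6 exceeded that of at least 95.6% of all genes. PVR (SD 0.736), CD276 (0.432), LGALS9 (0.379) and HHLA2 (0.24) varied less.

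**Figure D1:**
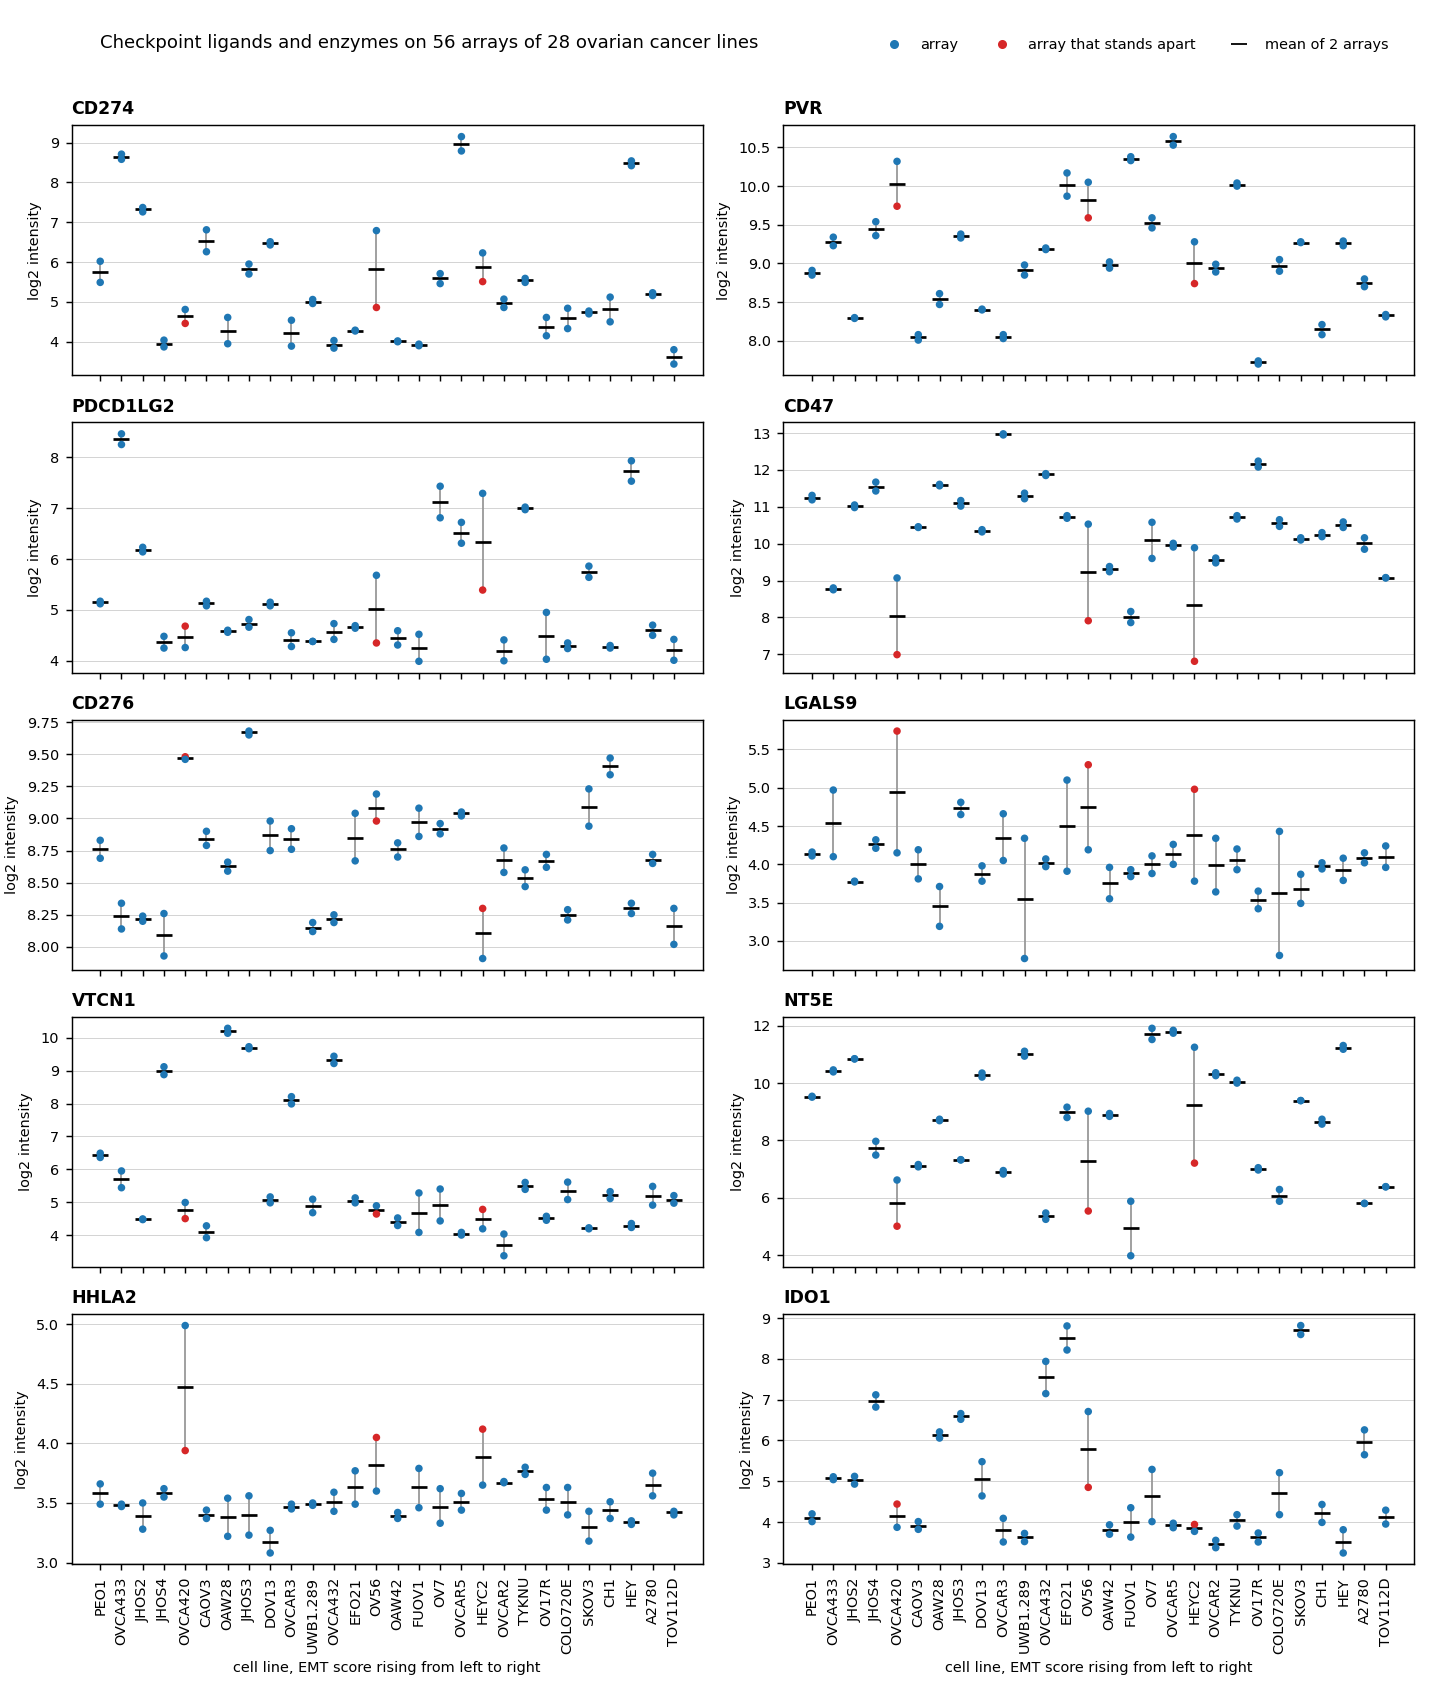
Log2 intensity of each of the 10 members (vertical axes, scaled per gene) on both arrays of 28 lines, ordered from the lowest to the highest EMT score, with points for arrays, bars for line means and red for the 3 arrays that stand apart. VTCN1 and IDO1 were high in a few lines and low in the rest, the line means of NT5E ran over 6.86 log2 units, and those of LGALS9 and HHLA2 over 1.49 and 1.3 (single arrays over 2.97 and 1.91).

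CD274 was high in a small group of lines. The lowest level was 3.62, in TOV112D, the median 4.99 and the highest 8.97, in OVCAR5. The arrays gave 8.79 and 9.15 in OVCAR5, 8.58 and 8.71 in OVCA433, 8.54 and 8.42 in HEY, and 7.37 and 7.26 in JHOS2. These 4 lines stood above the other 24 by a step of 0.78, from CAOV3 at 6.54 to JHOS2, and the highest 3 above JHOS2 by 1.16. Both steps exceed 0.708 log2 units, the smallest difference between line means that passes limma's moderated threshold at 0.05, without adjustment for the 378 pairs of lines. No other neighbours in the order of CD274 levels differed by that much. The F test over lines gave an adjusted p of 1.55e-15 (limma). Without the 3 arrays OV56 stood at 6.79, above CAOV3, so the step up to JHOS2 at 7.32 was smaller. The smallest difference was then 0.449, and 2 steps still exceeded it.

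PDCD1LG2, which lies next to CD274 on chromosome 9, was high in overlapping lines. Its arrays read 8.25 and 8.46 in OVCA433, 7.93 and 7.53 in HEY, 7.43 and 6.81 in OV7, and 6.97 and 7.02 in TYKNU, against a median of 4.63 and a lowest level of 4.20 in OVCAR2. Over 28 lines the rho of both genes was 0.764 (jackknife standard error 0.0765) and Pearson's r 0.789, and rho was 0.747 without the 3 arrays. By likeness to PDCD1LG2, CD274 had rank 11 among 18376 genes, while PDCD1LG2 had rank 13 for CD274. The genes most alike CD274 were MT1HL1 (rho 0.826), HPCAL1, FXYD5, the receptor tyrosine kinase gene AXL (0.79) and the metallothionein gene MT2A (0.788), and SP100, a nuclear body protein (0.843), led for PDCD1LG2, ahead of DRAP1, TUBB6, DDX60L and ADTRP (0.794 to 0.826). Of the 7 lines with the highest levels of each gene, 5 were shared (HEY, HEYC2, JHOS2, OVCA433 and OVCAR5), and 4, without HEYC2, when the 3 arrays were left out. The next genes on either side, PLGRKT (rho with CD274 0.0487) and RIC1 (rho with PDCD1LG2 -0.0651), did not have this pattern. HEY and HEYC2 had unlike CD274: the array of HEYC2 that does not stand apart read 6.23, which is 2.25 below the level of HEY at 8.48, whereas PDCD1LG2 read 7.29 there and 7.73 in HEY.

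CD276 covered a narrow range of 1.57 log2 units. Levels ran from 8.09 in JHOS4 through a median of 8.72 to 9.67 in JHOS3, where the arrays gave 9.65 and 9.68. OVCA420 (9.48 and 9.46) and CH1 (9.47 and 9.34) followed. No step between neighbours exceeded the smallest difference of 0.348, although 228 of 378 pairs of lines differed by more than it (adjusted p over lines 7.58e-10, limma). The most alike gene was its chromosome neighbour NPTN, an immunoglobulin superfamily protein (rho 0.761 and 0.802 without the 3 arrays, rank 1 of 18376), and PKM, a pyruvate kinase, and ZFAND6 came next. All 3 lie on chromosome 15, as CD276 does. HHIPL2 (0.611) and XPNPEP2 (0.606) followed.

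VTCN1 split the lines into a few with high levels and many with low ones. The arrays gave 10.29 and 10.14 in OAW28, 9.67 and 9.73 in JHOS3, 9.44 and 9.22 in OVCA432, 9.12 and 8.88 in JHOS4, and 7.99 and 8.21 in OVCAR3. PEO1 stood between, at 6.49 and 6.36, and the remaining 22 lines lay at 5.70 or below, down to 3.70 in OVCAR2. The steps beyond the smallest difference of 0.602 were the step of 0.73 from OVCA433 to PEO1, the step of 1.67 from PEO1 to OVCAR3 and the step of 0.9 from OVCAR3 to JHOS4. The adjusted p over lines was 7.1e-20 (limma). FAT2, an atypical cadherin (rho 0.764, Pearson's r 0.822), GRHL2, an epithelial transcription factor (rho 0.68, r 0.714), RALGAPB, ZNF256 and EGFL6 were the most alike genes. On the chromosome, the adjacent gene TRIM45 varied with VTCN1 (rho 0.572, and 0.576 without the 3 arrays, rank 30). MAN1A2, on the other side, had a rho of 0.278.

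HHLA2 hardly varied, with a lowest level of 3.17 in DOV13, a median of 3.50 and a highest of 4.47 in OVCA420. That highest level rests on arrays of 3.94 and 4.99, of which the lower stands apart. The step of 0.58 from HEYC2 (3.89) to OVCA420 was the only one beyond the smallest difference of 0.426. The lines differed (adjusted p = 0.00861, limma) but did not pass the test after a further quantile normalization of the arrays (adjusted p = 0.744). Without the 3 arrays the spread was wider. OVCA420 then stood at 4.99, on 1 array, and the range over lines was 1.82 log2 units, against 1.3 with all arrays. MBLAC1, the most alike gene at a rho of 0.812, had a rho of 0.476 without the 3 arrays. PRDM10-DT, PRSS48, PRKACG and ZBED3 followed (0.777 to 0.809, and 0.631 to 0.772 without the 3 arrays). A rho above 0.5 with HHLA2 was found for 8.84% of all genes, against 0.18% to 3.02% for the other members.

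PVR ran from 7.72 in OV17R through a median of 8.99 to 10.58 in OVCAR5. The arrays gave 10.53 and 10.64 in OVCAR5, 10.33 and 10.38 in FUOV1 and 7.74 and 7.70 in OV17R, and duplicates outside the lines of the 3 arrays differed by at most 0.303. No step between neighbours exceeded the smallest difference of 0.375, but 279 of 378 pairs of lines did (adjusted p over lines 5.89e-15, limma). Without the 3 arrays the smallest difference was 0.175, and 6 steps between neighbours exceeded it. PDLIM7, a cytoskeletal adaptor, was the most alike gene (rho 0.724, and 0.615 without the 3 arrays), before LHB, OSGIN1, TEKT1 and KRTAP10-4 (0.689 to 0.7). Near PVR on chromosome 19, CEACAM20 had a rho of 0.527 (rank 228), CEACAM19 0.49 (rank 402) and CEACAM16 0.328. Of the proteins PVR binds, TIGIT ranged only from 4.22 to 4.78 and CD96 from 3.79 to 4.39 over the lines.

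CD47 was read with wide spread on the arrays that stand apart. It ran from 8.01 in FUOV1 through a median of 10.40 to 12.97 in OVCAR3, where the arrays gave 12.98 and 12.95. OV17R (12.08 and 12.24) and OVCA432 (11.90 and 11.85) followed, and the arrays of FUOV1 gave 7.86 and 8.16. The arrays that stand apart read 6.81 in HEYC2, 7.91 in OV56 and 6.99 in OVCA420, against 9.89, 10.53 and 9.07 on their duplicates. They set the smallest difference at 1.24, and without them it was 0.321. Then OVCAR3 was still the highest and FUOV1 the lowest line, and the SD over lines was 1.08. The neighbouring gene IFT57, an intraflagellar transport gene, varied with CD47 (rho 0.683, and 0.618 without the 3 arrays, rank 27), while HHLA2, the next gene after IFT57, did not (rho -0.269). INTS4 was the most alike gene (rho 0.81), before RBP7, COMMD2, ARMC8 and LIPT2-AS1 (0.763 to 0.774).

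LGALS9 could not be told apart between lines. Its levels ran from 3.45 in OAW28 through a median of 4.01 to 4.95 in OVCA420, while duplicates differed by up to 1.62 (COLO720E, 4.43 and 2.81). The F test over lines gave an adjusted p of 0.346 (limma) and an unadjusted p of 0.297. The highest levels, in OVCA420 (5.74 and 4.15) and OV56 (4.19 and 5.30), rest on arrays that stand apart. Since near-identical copies of LGALS9 exist in the genome, its probe set may not be specific, and it is reported as uncertain. Its most alike genes were PDXP-DT, FAM124B, KRTAP10-9, SERTAD1 and DOK2 (0.684 to 0.728, and 0.446 to 0.587 without the 3 arrays).

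NT5E had the widest range of the members. The arrays gave 11.74 and 11.84 in OVCAR5, 11.52 and 11.91 in OV7, 11.31 and 11.18 in HEY, and 10.94 and 11.11 in UWB1.289. The median was 8.80. At the low end OVCA432 had 5.47 and 5.25, A2780 a level of 5.81, and FUOV1 3.98 and 5.88. The lines differed at an adjusted p of 1.5e-10 (limma), and 236 of 378 pairs of lines were farther apart than 1.54, the smallest difference, which was 0.601 without the 3 arrays. HEYC2 read 7.21 on the array that stands apart and 11.25 on the other, which is 0.01 from HEY. NT5E varied with CD274 (rho 0.64, standard error 0.125) and with PDCD1LG2 (rho 0.587, standard error 0.165), and both values were higher without the 3 arrays, at 0.685 and 0.659. HEY, JHOS2, OVCA433 and OVCAR5 were among the 7 highest lines for all 3 genes. ARHGAP18, also on chromosome 6 (rho 0.884), ITGA6, the laminin receptor subunit integrin alpha-6 (0.875), and MIR221 (0.831) were its most alike genes, before CDC42EP3 (0.819) and LACTB (0.816).

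IDO1 was high in another set of lines. The arrays gave 8.60 and 8.82 in SKOV3, 8.22 and 8.81 in EFO21, 7.94 and 7.15 in OVCA432, 7.12 and 6.82 in JHOS4 and 6.52 and 6.66 in JHOS3, against a median of 4.18 and a lowest level of 3.46 in OVCAR2. SKOV3 and EFO21 stood above the other 26 lines by a step of 0.96, beyond the smallest difference of 0.849 (adjusted p over lines 8.69e-14, limma). Its neighbour IDO2, a related dioxygenase gene, did not share the pattern (rho 0.229, rank 1986). RBCK1, a subunit of the linear ubiquitin chain ligase, was the most alike gene (rho 0.669), and MMP7, a matrix metalloproteinase, the fourth (rho 0.638). TBC1D9B (0.641), DNAJB2 (0.638) and TBC1D20 (0.633) were the others of the first 5.

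**Figure D2:**
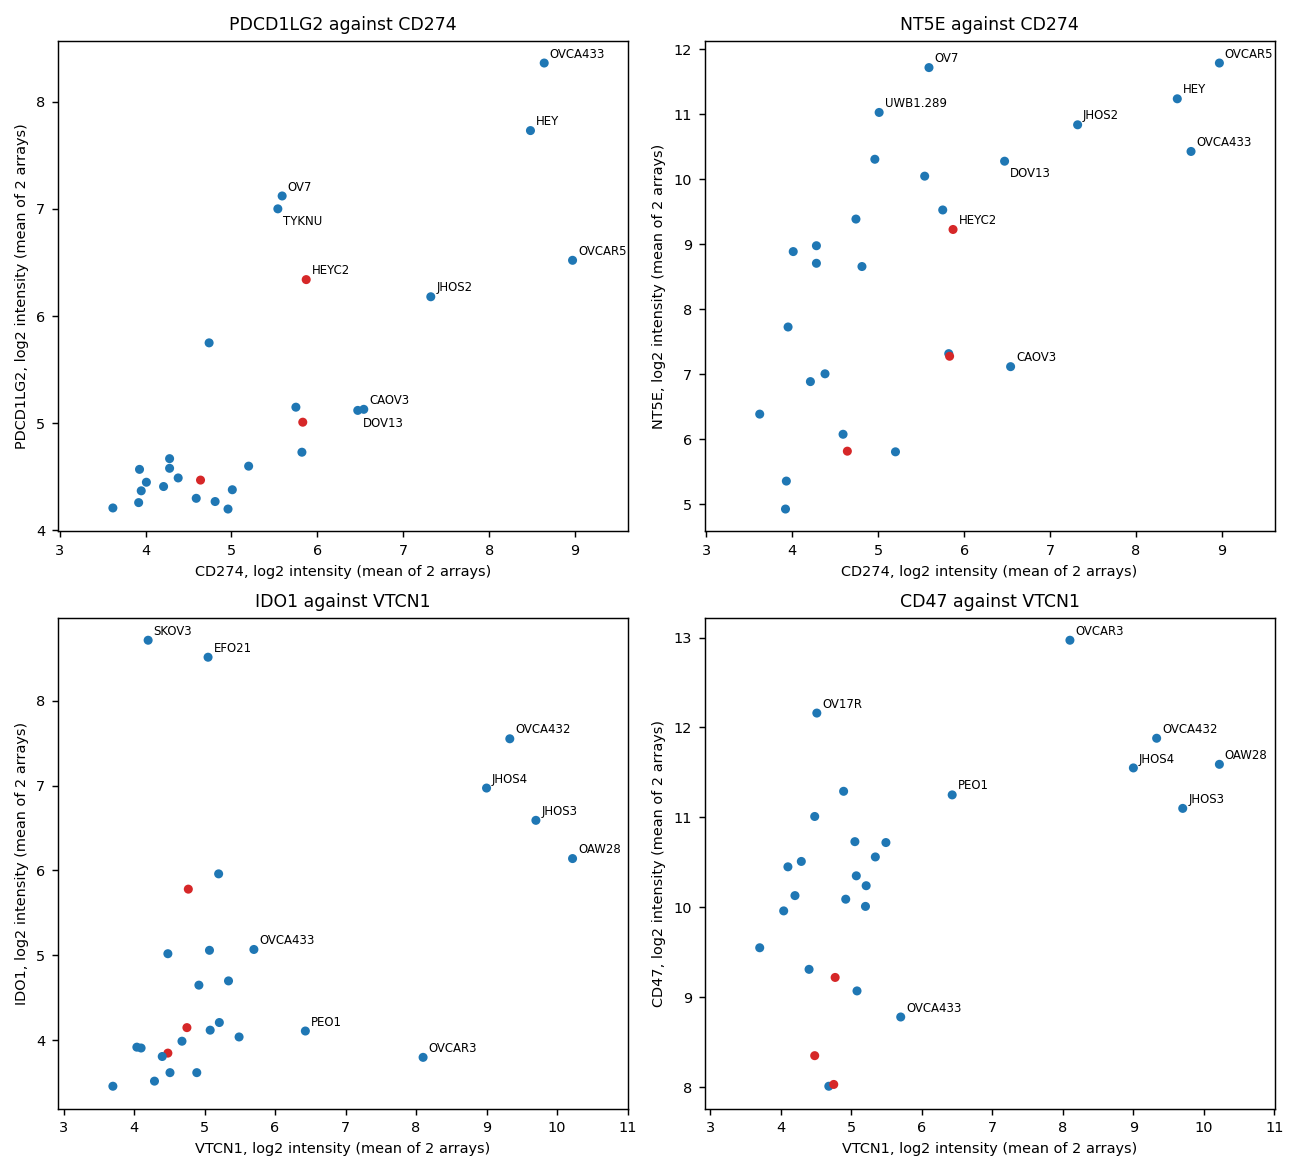
Levels (log2 intensity, mean of 2 arrays) of 2 members against each other in each of 28 lines, with the highest lines named and red for lines that hold an array that stands apart. HEY, OVCA433 and OVCAR5 were high in CD274, PDCD1LG2 and NT5E, and JHOS3, JHOS4, OAW28 and OVCA432 in VTCN1 and IDO1, whereas SKOV3 and EFO21, at 8.71 and 8.51 for IDO1, had VTCN1 levels of 4.20 and 5.05.

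Between the members, 4 of 45 pairs had a rho above 0.5 over 28 lines and none a rho below -0.5, and 34 pairs lay within 0.3 of 0. The 4 pairs were those among CD274, PDCD1LG2 and NT5E, and VTCN1 with IDO1 (rho 0.501, standard error 0.188, Pearson's r 0.428). Next came HHLA2 with LGALS9 (rho 0.496, and 0.321 without the 3 arrays) and VTCN1 with CD47 (rho 0.474, r 0.549), which shared 5 of their 7 highest lines. VTCN1 had negative values with CD274 (rho -0.31) and NT5E (rho -0.321), and of their 7 highest lines CD274 and VTCN1 shared OVCA433 only. PVR and CD47 had the lowest rho of the 45 pairs, -0.395, but without the 3 arrays it was -0.352, and VTCN1 with NT5E was lower at -0.422. All these values rest on the same 28 lines and arrays and are descriptions.

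**Figure D3:**
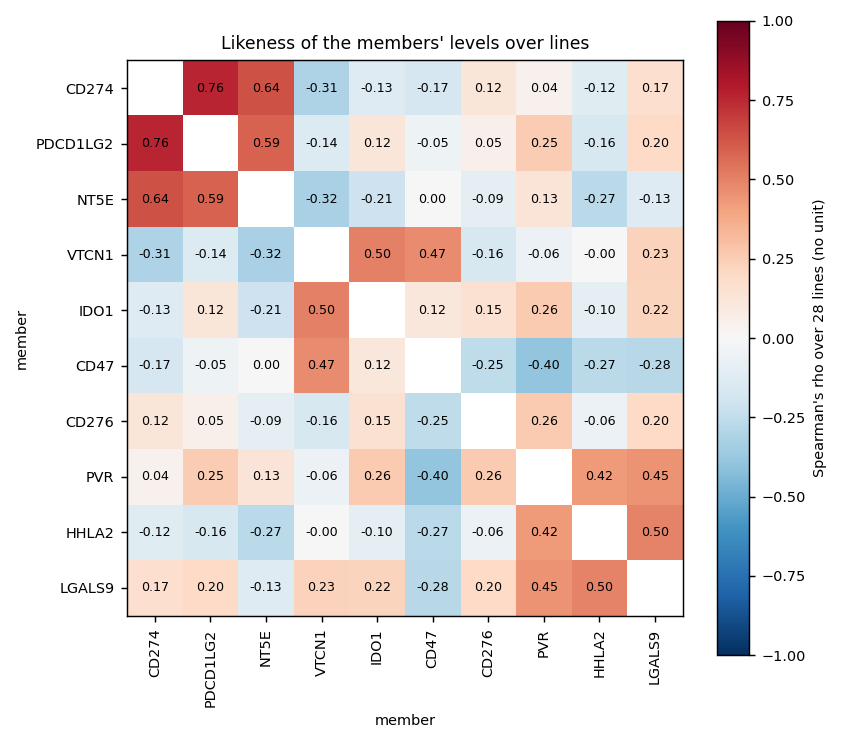
Spearman's rho (no unit, colour and number) between the levels of each pair of members over 28 lines. CD274, PDCD1LG2 and NT5E form 1 block of high values (0.587 to 0.764). VTCN1 varied with IDO1 (0.501) and CD47 (0.474) but IDO1 and CD47 hardly with each other (0.115). HHLA2, PVR and LGALS9 had weaker values with each other (0.425 to 0.496, and 0.321 to 0.439 without the 3 arrays that stand apart). Of these, HHLA2 hardly varied and LGALS9 did not differ between lines beyond its duplicates.

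The 14 measured genes of the interferon-gamma response other than members varied in part with the PD-1 ligands. Of these, 2 had a rho above 0.5 with CD274 and 5 with PDCD1LG2, against 2.49% and 2.53% of all genes. Their median rho was 0.354 with CD274 and 0.34 with PDCD1LG2, against 0.00766 and 0.0213 over all genes, and 0.237 with IDO1, against -0.0104. TAP2, a peptide transporter of antigen presentation, had a rho of 0.689 with CD274 and of 0.739 with PDCD1LG2. PSMB9, an immunoproteasome subunit, had 0.522 and 0.623. Of the 20 regulators of PD-L1 and of interferon-gamma signalling, IRF1, a transcription factor of that pathway, was the most alike CD274 (rho 0.551), and JAK2 the most alike PDCD1LG2 (rho 0.525). CMTM6, which protects PD-L1 from degradation, had its highest rho with CD47 (0.732), not with CD274. The adhesion receptor CD44 and galectin-1 (LGALS1) varied with CD274 (rho 0.722 and 0.674) and with NT5E (0.718 and 0.716). In the adenosine pathway, ADK, adenosine kinase, had a rho of 0.693 with NT5E, and the receptor gene ADORA2B 0.513 with NT5E and 0.593 with CD274. No gene of the tryptophan and kynurenine list passed 0.5 with IDO1, where WARS1, a tryptophanyl-tRNA synthetase, was the most alike (0.308).

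To ask whether the members followed the epithelial or the mesenchymal state, each was related to an EMT score. It sets 200 mesenchymal against 182 epithelial signature genes by a signed Kolmogorov-Smirnov statistic on their values, each centred on its median over lines, and is higher where mesenchymal genes are higher. Duplicate arrays gave scores of opposite sign in FUOV1 (0.382 and -0.333), OV7 (0.529 and -0.12) and OAW42 (0.185 and -0.148). They did so too in HEYC2 (-0.208 and 0.7) and OV56 (0.123 and -0.298), which each hold an array that stands apart. FUOV1, OV7 and OAW42 hold no such array, so leaving those arrays out does not settle where these lines lie. In all other lines both arrays gave the same sign. The score of a line, the mean over its arrays, ran from -0.823 in PEO1 to 0.729 in TOV112D. The epithelial cadherin CDH1 (rho -0.72, adjusted p = 0.0153) and GRHL2 (rho -0.696, adjusted p = 0.0153) fell along it, while VIM, the mesenchymal filament gene, had a rho of 0.534 (adjusted p = 0.184) and ZEB1, a repressor of CDH1, 0.603 (adjusted p = 0.0788). CDH1, GRHL2 and others make the score, so this only shows its direction.

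No member passed the test along the score (permutation test of Spearman's rho, 100000 permutations, adjusted over all genes), against 0.822% of all genes (151, of which 125 fell and 26 rose). At an unadjusted permutation p under 0.05 there were 0 members by rho, against 10.0% of all genes, and 0 of the 10 had a rho beyond 0.5 in size, against 3.1%. By limma's slope on the score 0 members and 1.09% of all genes passed at an adjusted p under 0.05. Of the members, only VTCN1 had an unadjusted p under 0.05 by that slope. The share of all genes at that unadjusted limma p was not counted, so this does not set VTCN1 apart. The median size of rho was 0.167 over the members and 0.151 over all genes, and 8 members had a negative and 2 a positive rho, with medians of -0.167 for the members and 0.012 for all genes.

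**Figure D4:**
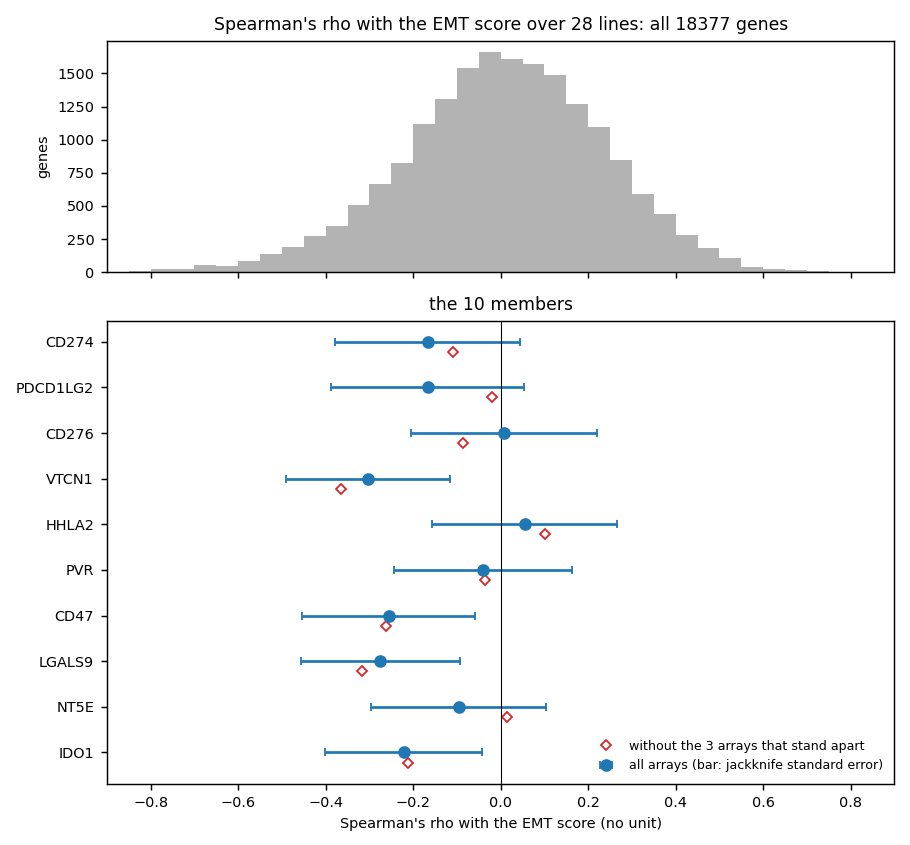
Spearman's rho with the EMT score over 28 lines (no unit) of all 18377 genes as a histogram (top) and of each member (bottom, points with the jackknife standard error over lines, and diamonds without the 3 arrays that stand apart). With all arrays the members lie between -0.303 and 0.0547, in the body of the distribution. Without the 3 arrays they lie between -0.366 (VTCN1) and 0.101 (HHLA2).

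VTCN1 came closest. It had a rho of -0.303, with a standard error of 0.187 (permutation p = 0.117, or 0.653 after adjustment), and its Pearson's r -0.432 (permutation p = 0.022, adjusted p = 0.373), and limma's slope on the score was -1.74 (standard error 0.68, adjusted p = 0.326). With the 2 lines most distant from the median score left out, r was -0.437, and without the 3 arrays rho was -0.366 (adjusted p = 0.43). VTCN1 is itself one of the epithelial signature genes, and with a score rebuilt without it rho was -0.297 (adjusted p = 0.669). The 5 lines with the highest VTCN1 all scored below 0, between -0.526 in JHOS4 and -0.146 in OVCA432, but OVCA433, JHOS2 and CAOV3, which scored from -0.619 to -0.472, had levels of 5.70, 4.48 and 4.10.

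LGALS9 had a rho of -0.275 (standard error 0.181, permutation p = 0.155, adjusted p = 0.707) with an r of -0.286 (permutation p = 0.14), which was -0.314 without the lines farthest from the median score. CD47 had a rho of -0.256 (standard error 0.197, permutation p = 0.189, adjusted p = 0.741) with an r of -0.199 (permutation p = 0.31), or -0.103 without those lines. IDO1 had -0.222 (standard error 0.18, permutation p = 0.254, adjusted p = 0.793), with an r of -0.134 (permutation p = 0.497) and -0.159 without those lines.

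CD274 and PDCD1LG2 each had a rho of -0.167 (adjusted p = 0.868 and 0.867), and their r of -0.116 (permutation p = 0.557) and 0.0239 (permutation p = 0.904) was smaller in size. OVCA433, with the second lowest score of -0.619, had 8.64 for CD274 and 8.36 for PDCD1LG2, and HEY, with a score of 0.645, had 8.48 and 7.73. OVCAR5, the highest line for CD274, scored 0.219, and TOV112D, with the highest score, had 3.62 and 4.21. For NT5E, rho was -0.0963 (permutation p = 0.624, or 0.941 adjusted) with an r of -0.0341 (permutation p = 0.862). For PVR, rho was -0.0405 (permutation p = 0.839, or 0.978 adjusted) with an r of -0.0161 (permutation p = 0.936). The positive values were those of HHLA2 at 0.0547 (permutation p = 0.781, or 0.97 adjusted, r -0.0624, permutation p = 0.77) and CD276 at 0.00712 (permutation p = 0.973, or 0.997 adjusted, r -0.044, permutation p = 0.824). Without the 2 most distant lines the r of these 6 genes lay between -0.0342 (CD274) and 0.08 (PDCD1LG2). Standard errors of these 6 values lay between 0.201 and 0.22, so a weak relation of either sign cannot be told from none with 28 lines.

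Most of the related lists held no gene called along the score, where 0.822% of all genes were called. Each list gene that was called is a signature gene and helps make the score. As the score was not rebuilt without these genes, their calls are not independent of it. Of the 15 other B7 and butyrophilin genes none was called and 2 had a rho below -0.5, ICOSLG, the ligand of ICOS (rho -0.571, adjusted p = 0.122), and VSIR, which encodes VISTA (rho -0.534, adjusted p = 0.181). None of the 7 nectins and nectin-like genes was called, with NECTIN4 at a rho of -0.459 (adjusted p = 0.317) and CADM4 at -0.269 (adjusted p = 0.717). None of the 20 adenosine genes (ADORA1 at -0.498, ADA at 0.476), the 15 tryptophan genes (TDO2 at 0.437, AADAT at 0.38) or the 10 galectins and receptors (P4HB at -0.54, LGALS3 at -0.506) was called. The same held for the 10 partners and regulators of CD47 (CD24 at -0.536, THBS1 at -0.369), the 20 PD-L1 regulators (CMTM4 at -0.433, CMTM6 at -0.401) and the 14 interferon-gamma response genes (GBP2 at -0.587, GBP4 at -0.453). Of 26 other costimulatory and checkpoint ligands 1 fell, TNFSF10, the death ligand TRAIL (rho -0.765, adjusted p = 0.00707), which is an epithelial signature gene. None of the 9 receptors on leukocytes, the 14 leukocyte markers or the 12 fibroblast and endothelial markers was called, with median rho of 0.0164, 0.0629 and 0.17. Of the 12 carcinoma and Mullerian markers 4 fell, EPCAM, KRT19, MUC16 and KRT7, each a signature gene, and KRT7 did not pass without the 3 arrays (adjusted p = 0.0547).

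The base medium was compared next. Between 10 DMEM, 9 RPMI and 7 DMEM/F12 lines no member passed limma's F test after adjustment, nor did any other gene (0.0% of all genes called). None of the members had an unadjusted p under 0.05, a share that was not counted over all genes. The lowest unadjusted p was that of CD276 (0.568), which averaged 8.80 ± 0.429 in the DMEM lines, 8.61 ± 0.317 in the RPMI lines and 8.80 ± 0.536 in the DMEM/F12 lines (SD over lines). VTCN1 averaged 5.85 ± 2.15, 5.18 ± 1.36 and 6.01 ± 2.30 in the same order of media, and NT5E 8.47 ± 1.80, 8.87 ± 2.18 and 8.12 ± 2.35. Lines were not assigned to media at random, so medium and line cannot be told apart.

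The relation to the score was also examined within each medium. No interaction of score and medium passed for a member (lowest unadjusted p 0.251 and adjusted p 1.0, limma's F test, against 0.00544% of all genes called). For VTCN1, rho was -0.115 (DMEM), -0.383 (RPMI) and -0.107 (DMEM/F12), and for LGALS9 -0.442, -0.683 and -0.286, negative in each medium as over all lines. IDO1 had 0.0667 and -0.05 in DMEM and RPMI and -0.75 among the 7 DMEM/F12 lines. CD47 had 0.236, -0.517 and -0.0357, CD274 -0.297, 0.233 and -0.429, and CD276 0.188, -0.55 and 0.25, with signs that differed between media. No p-values were computed within media, which hold 7 to 10 lines each.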

How the data were processed

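The deposited values are log2 intensities of 56 arrays, which the authors normalized by RMA (affy 1.42.3, per the submitters' notes). Which arrays were normalized together and any filter are not given in the sources used here. Of 28869 probe sets, 19310 carry 1 listed gene and gave 18377 genes, with the highest-mean probe set taken for the 685 genes with several. Arrays of a line were averaged. Replicate numbers were not treated as pairs between lines in the main fits.

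Spearman's rho and Pearson's r with the EMT score used 100000 permutations of the score (2-sided) and standard errors a jackknife over lines. Lines, base media and the interaction were tested with limma 3.58.1 (trend and robust settings, statmod 1.5.0, R 4.3.3), with Benjamini-Hochberg adjustment over all genes throughout. Python 3.11.15, numpy 2.4.6, pandas 2.3.3 and scipy 1.17.1 were used, and each test was tested on simulated data. Precision is limited by how many arrays there are.

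The members and lists were chosen with earlier results of these data known. Genes named are the members, of each list those called or else the 2 with the largest rho in size, the 5 genes most alike each member, some chromosome neighbours and 4 anchors. Other list genes (TAP2, PSMB9, IRF1, JAK2, CD44, LGALS1, ADK, ADORA2B, WARS1, CD68, CD14, CD3G, PTPRC, DCN, LUM, COL1A1, COL3A1, THY1, PECAM1, CDH5, KRT8, KRT18, WT1, FOLR1, TIGIT, CD96) were named after their values were seen. IGSF23, the HLA class I genes, PDCD1, OVCA429 and HEYA8 were not analysed here.

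Alternatives tried were other forms of the score, single replicates, fits without the 3 arrays, HEY merged with HEYC2, media centred, farthest lines left out, a replicate block, each array left out, the mean over probe sets, a filter at a mean of 5, quantile normalization and a threshold of 0.5 in rho.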

Additional observations from a re-analysis of the deposited data

Results flagged for a closer look

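2 of 30 sets of lines, each 1 member in 1 base medium, held a line far from the others, where chance alone gives about 1 in 20. Among the 10 DMEM lines, HHLA2 in OVCA420 was 4.47, against 3.77 in the next line, TYKNU, a gap of 0.539 of the whole range. The array of OVCA420 that does not stand apart read 4.99, so the line is farther from the rest without the other array. Among the 9 RPMI lines, IDO1 in EFO21 was 8.51, on arrays of 8.22 and 8.81, against 5.96 in A2780, a gap of 0.506 of the range.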

How the results depend on the processing

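No member was called along the EMT score under any alternative, and none between media or in the interaction. In fits across media, the relations of 5 members to the score changed sign in some settings, each at an adjusted p of 0.779 or above. Within 1 medium, with no test, CD274 (0.233 in RPMI), CD47 (0.236 in DMEM) and IDO1 (0.0667 in DMEM) also changed sign. For PDCD1LG2 (rho -0.167) these were Pearson's r (0.0239), replicate 2 alone (0.0947, against -0.247 for replicate 1) and the limma slope (0.0613 log2 units per unit of score). For CD276 (rho 0.00712) they were Pearson's r (-0.044), the uncentred score (-0.0542), the difference of means (-0.0246), replicate 2 alone (-0.175, against 0.12 for replicate 1), the fit without the 3 arrays (-0.087), the mean over probe sets (-0.000547), quantile normalization (-0.00219) and the limma slope (-0.0414). For HHLA2 (rho 0.0547) they were Pearson's r (-0.0624), replicate 2 alone (-0.0673), replicate 1 alone (-0.0525), quantile normalization (-0.109) and the limma slope (-0.0326). PVR (rho -0.0405) turned with replicate 1 alone (0.0285, against -0.0701 for replicate 2) and media centred (0.0585). NT5E (rho -0.0963) turned with replicate 2 alone (0.0312, against -0.108 for replicate 1), without the 3 arrays (0.0137), with media centred (0.00308) and without the farthest lines (0.00923). Between lines, 9 members were called with a replicate block, without the 3 arrays and with each array left out in turn (9 in all 56 fits), 8 after quantile normalization, where HHLA2 was lost, and 7 under the filter at a mean of 5, which leaves out the others. LGALS9 was called in none, with an adjusted p of 0.0872 to 0.452 with each array left out. Shares of all genes called between lines are given above only for the main fit and the fit without the 3 arrays. The counts in the other fits therefore do not set the members apart from other genes. Deviations from the line means of arrays with the same replicate number had a median correlation of -0.000247 over 378 pairs of lines. The values ran from -0.887 to 0.871, and 91 pairs were above 0.1. Whether some lines shared a batch cannot be told from the median. Of the 5 genes most alike each member, 50 in all, 27 stayed among the 20 most alike by Pearson's r and 42 without the 3 arrays. Among the list genes, 5 were called along the score, and 4 without the 3 arrays, where KRT7 was lost (for the lists, this alternative was chosen after seeing the data). The cause of these changes was not tested.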
